A study of Mus musculus with 8 samples.

Results

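The prostaglandin synthesis genes described here are 8 named genes of the prostanoid pathway, taken by symbol from 34899 genes measured by RNA-seq in mouse lung endothelial cells. They are the cyclooxygenases Ptgs1 and Ptgs2, the terminal synthases Ptgis, Tbxas1, Ptges, Ptges2 and Ptges3, and Ptgr1, which breaks prostaglandins down. All 8 had 1 row each in the deposited table, and all 8 were among the 17067 tested genes, those that reached 10 normalised counts in 4 or more libraries, so none was lost to the filter. Cells had been sorted from lungs of female C57BL6 mice as negative for CD45, the surface marker of leukocytes, and positive for CD31, an adhesion molecule of endothelium. There were 4 libraries from HF mice and 4 from LF mice, with no genotype or other treatment named for either group. HF and LF are not spelled out in the labels. By its title the series concerns obesity, inflamed vessels and how tumour cells cross the vessel wall. The sources used here do not state the age of the mice.

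Prostanoids are short-lived lipid signals made from arachidonic acid, which phospholipases cut from membranes. Cyclooxygenases turn arachidonic acid into an unstable intermediate, and terminal synthases turn that into prostacyclin, thromboxane or prostaglandins of the E, D and F series. Prostacyclin from the vessel wall widens vessels and keeps platelets quiet, whereas thromboxane, best known from platelets and macrophages, narrows vessels and activates platelets. The lung is known for removing circulating prostaglandins, which its cells take up and oxidise.

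Between 10631506 reads (LF 1) and 20781564 reads (HF 4) per library were assigned to genes. LF 1 and LF 2 stood apart from the other libraries on the first principal component, which held 36.1% of the variance, at -56.4 and -50.9, against -6.79 to 39.6 for the other 6. On the second component, with 17.5% of the variance, LF 3 and LF 4 lay at -38.5 and -34.2 and the other 6 between -1.41 and 29.6. LF 1 and LF 2 are called the first LF pair here, and LF 3 and LF 4 the second. For the 8 genes, folds are given with and without each pair. The pairs were seen in these same data, and leaving either out narrows the spread within LF. P-values and calls of those fits therefore describe the dependence on the pair and are not tests of HF against LF. Pecam1, which encodes CD31, was at 28252 ± 1063 normalised counts in HF and 25381 ± 6906 in LF (SD, n = 4 each), and Ptprc, which encodes CD45, at 166 ± 72.8 in HF and 199 ± 59.0 in LF. The endothelial cadherin Cdh5 was at 13037 ± 196 in HF and 11154 ± 1655 in LF. Limma called Pecam1 and Cdh5 higher in HF without the second LF pair (adjusted p = 0.00642 and 0.0105), as it did 14% of all tested genes. It called neither without the first pair (adjusted p = 0.645 and 0.872). Markers of other cells were present too, with the highest sum for alveolar epithelium, at 14421 to 22072 normalised counts in HF and 16789 to 32638 in LF, against 120388 to 193686 for endothelium over all libraries. Of the tested markers, a higher mean in HF was found in 0 of 9 for monocytes and macrophages, 0 of 6 for neutrophils, 0 of 8 for smooth muscle and pericytes, 2 of 8 for fibroblasts and 0 of 2 for mesothelium. The same count was 0 of 7 for airway epithelium, 0 of 8 for alveolar epithelium, 1 of 4 for mast cells and basophils, 7 of 8 for platelets and 8 of 10 for endothelium. No marker was at 0 in every library, but Ly6g, Gp1bb, Mcpt4 and Wt1, which mark neutrophils, platelets, mast cells and mesothelium, averaged under 1 normalised count.

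A pair of genes of the pathway leaned in opposite directions. Ptges2, a membrane-associated enzyme named as a prostaglandin E synthase, was higher in mean in HF, and Ptgs2, the inducible cyclooxygenase, had the lower mean in HF. Neither passed limma's test across all genes. The authors' deposited Wald test gives Ptges2 an adjusted p of 0.0490, where 2.04% of all genes were called. By limma's moderated test with Benjamini-Hochberg adjustment, 0 of the 8 genes and 0 of all 17067 genes (0%) had an adjusted p under 0.05. At an unadjusted p under 0.05 limma gave 2 of the 8 genes, where 11% of all tested genes (1882) fell. Ptges2 was on the higher side, with 6.36% of all tested genes, and Ptgs2 on the lower side, with 4.67%. edgeR's quasi-likelihood test called 0 of the 8 genes and 0 in all, and gave Ptges2 and Ptgs2 among 1905 genes (11.2%) at an unadjusted p under 0.05. DESeq2 called 0 of the 8 genes among 313 in all, 1.57% of its genes higher in HF and 0.596% lower. A higher mean in HF was found in 4 of the 8 genes and in 51.3% of all tested genes. The median log2 fold change was 0.00023 over the 8 genes and 0.023 over all tested genes.

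**Figure D1:**
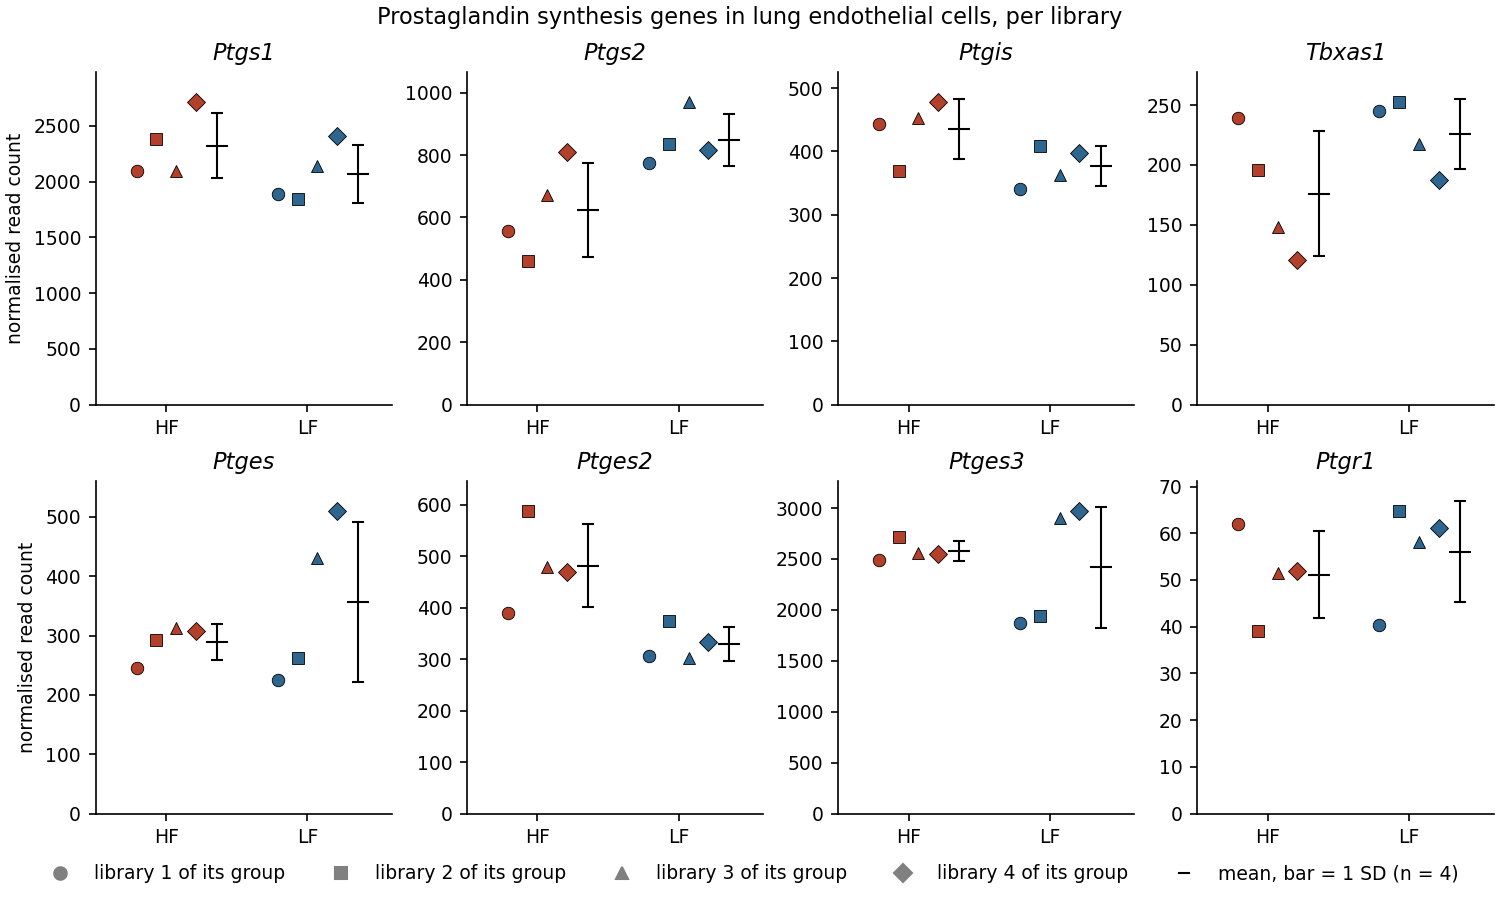
Normalised read counts of the 8 genes (y axis, each panel from 0) in the HF and LF libraries, with the mean and SD of each group (n = 4). All 4 HF values of Ptges2 (390.2 to 587) lie above all 4 LF values (302 to 374), while in the other 7 genes the groups overlap.

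Ptgs1 and Ptgs2 encode the 2 cyclooxygenases. Ptgs1 is the enzyme most cells carry at all times, and Ptgs2 is switched on by inflammatory and mechanical signals. Ptgs1 (ENSMUSG00000047250, chromosome 2 from 36230426 to 36252272 in GENCODE M21, GRCm38) had 2098, 2384, 2096 and 2709.8 normalised counts in HF 1 to HF 4, against 1891, 1841, 2136 and 2405 in LF 1 to LF 4. The groups overlapped, with LF 1 and LF 2 below every HF library. Its fold of HF over LF was 1.12 (95% interval 0.922 to 1.37), with a limma adjusted p of 0.645. Without the first LF pair the fold was 1.02 (0.845 to 1.23). With the second pair left out instead, it was 1.237 (1.03 to 1.48), with a limma adjusted p of 0.0861. Part of an exon, 148 bases, lies opposite Gm43621, which averaged 16.1 normalised counts.

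Ptgs2 (ENSMUSG00000032487, chromosome 1 from 150100031 to 150108227) had 557, 459, 673 and 809 normalised counts in HF 1 to HF 4, against 774, 837, 969 and 815 in LF 1 to LF 4. HF 1, HF 2 and HF 3 lay below every LF library, while HF 4 lay within the LF range. The means were 625 ± 151 in HF and 849 ± 84.2 in LF (SD, n = 4 each). The fold was 0.723 (0.562 to 0.930), with an unadjusted limma p of 0.0157 and an adjusted p of 0.334. Its direction was kept when the first LF pair was left out (0.688, limma adjusted p = 0.209) and when the second was (0.760, with an adjusted p of 0.152). Leaving out LF libraries could not have changed it, since every LF value exceeds the HF mean. The authors' deposited table gives Ptgs2 a log2 fold change of -0.44 with a standard error of 0.18 and an adjusted p of 0.241. Counts on Ptgs2os, a noncoding gene named after Ptgs2, were at most 6.10 in HF and 11.1 in LF. Those on the noncoding gene Ptgs2os2 were at most 8.67 in HF and 2.44 in LF.

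The sequences before the gene starts are shown for both cyclooxygenases and for Ptges2, since Ptgs2 and Ptges2 are the genes with the smallest p and Ptgs1 is the paralog of Ptgs2. Each line holds the 250 bases before the RefSeq start, 5′ to 3′ on the strand of the gene, in GRCm38.p6, and capitals mark the motifs found. Searched on both strands were the TATA box TATAAA, the palindrome TTGCGCAA bound by C/EBP factors, the E-box CACGTG, the core TGACG of the cyclic AMP response element, the GC box GGGCGG and the AP-1 site TGACTCA.
Ptgs2, chr1:150099781-150100030, plus strand: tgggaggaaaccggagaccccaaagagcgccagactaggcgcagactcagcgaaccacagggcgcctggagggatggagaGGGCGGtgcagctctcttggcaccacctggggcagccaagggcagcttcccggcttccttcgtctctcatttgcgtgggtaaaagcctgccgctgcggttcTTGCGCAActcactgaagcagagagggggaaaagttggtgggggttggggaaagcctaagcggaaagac
Ptgs1, chr2:36230176-36230425, plus strand: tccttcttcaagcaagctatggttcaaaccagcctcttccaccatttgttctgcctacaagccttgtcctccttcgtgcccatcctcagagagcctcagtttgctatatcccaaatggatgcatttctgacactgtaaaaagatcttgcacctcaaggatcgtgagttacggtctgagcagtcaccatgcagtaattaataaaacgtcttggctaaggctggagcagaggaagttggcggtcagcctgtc
Ptges2, chr2:32395640-32395889, plus strand: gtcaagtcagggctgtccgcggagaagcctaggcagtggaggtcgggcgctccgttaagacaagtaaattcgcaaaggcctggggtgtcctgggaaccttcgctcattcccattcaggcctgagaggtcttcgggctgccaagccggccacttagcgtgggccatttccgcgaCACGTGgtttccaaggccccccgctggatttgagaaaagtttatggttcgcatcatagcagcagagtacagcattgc
The Ptgs2 window held a GC box, whose first base lay 170 bases before the start, and the C/EBP palindrome, whose first base lay 69 bases before it. GC boxes were found before the start in 32.7% of 32851 RefSeq promoter windows, and the palindrome in 0.164%. An E-box overlapped a TGACG core, on the opposite strand, just after the annotated Ptgs2 start, in the 20 bases accactaCGTCACGTGgagt (chr1:150100037-150100056), where capitals mark both. Windows of 300 bases that include the 50 after the start held an E-box in 7.15% and the TGACG core in 20.8% of all cases. In the Ptges2 window an E-box began 77 bases before the start, as 6.02% of windows had one before the start. None of the 6 motifs was found in the Ptgs1 window. Its share of G and C was 48.0%, against 61.6% for Ptgs2 and 57.6% for Ptges2. Windows were at hand for 7 of the 8 genes, all but Ptgis, and a match is a description of the letters, not a site in use.

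Within each library, Ptgs2 was set against Ptgs1, and for this ratio the groups did not overlap. The log2 ratio of Ptgs2 to Ptgs1 counts was -1.91, -2.37, -1.64 and -1.74 in HF 1 to HF 4, against -1.29, -1.14, -1.14 and -1.56 in LF 1 to LF 4. Every HF library lay below every LF library. The group means were -1.92 ± 0.33 in HF and -1.28 ± 0.20 in LF (SD, n = 4 each), which is 0.265 reads of Ptgs2 for each read of Ptgs1 in HF and 0.411 in LF. A ratio within a library does not depend on how libraries are scaled. The pair of genes was chosen with earlier results of these data known, so no p-value is given. How often ratios of other pairs of genes separate the groups was not computed, so the lack of overlap has no background share.

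**Figure D2:**
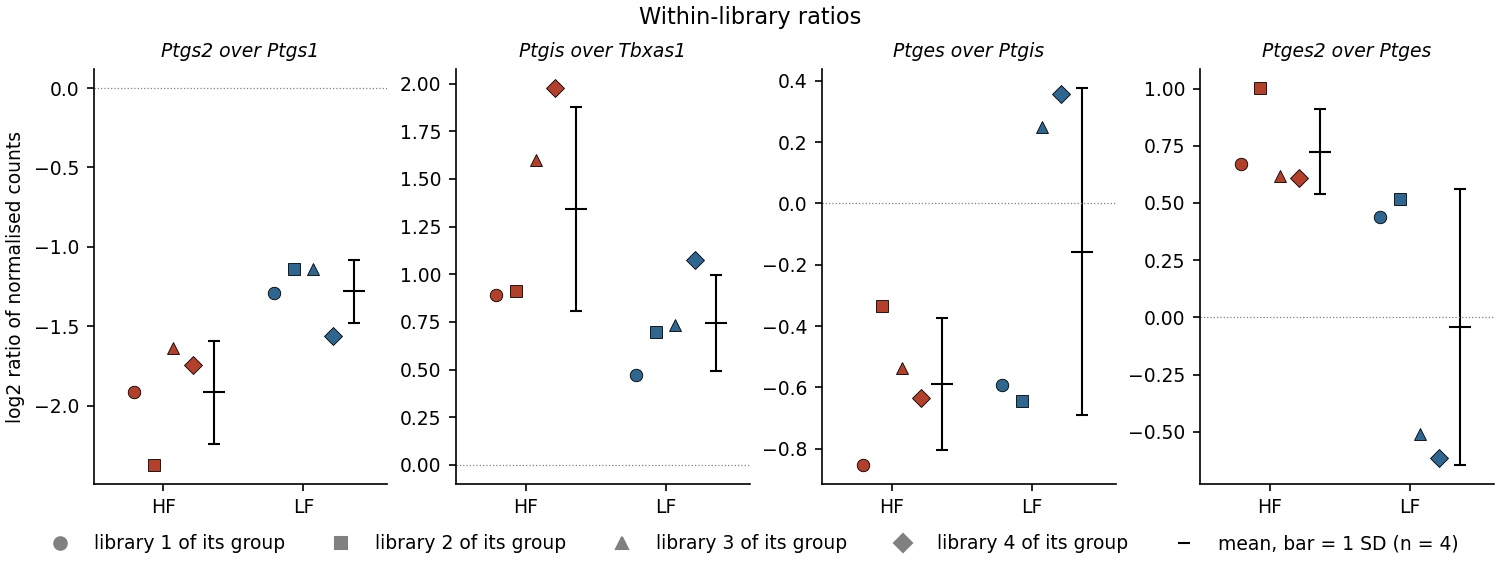
Log2 ratios of normalised counts (y axis) for 4 pairs of genes in each HF and LF library, with the mean and SD of each group (n = 4). All HF values of Ptgs2 over Ptgs1 lie below all LF values (-2.37 to -1.64 against -1.56 to -1.14), and for Ptges2 over Ptges all HF values lie above, closer to LF 1 and LF 2 than to LF 3 and LF 4.

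Ptgis and Tbxas1 encode the synthases of prostacyclin and thromboxane, whose effects on vessels and platelets oppose each other. Ptgis (ENSMUSG00000017969, chromosome 2 from 167191805 to 167240604) had 443, 369, 453 and 477 normalised counts in HF 1 to HF 4, against 340.4, 409, 362 and 397 in LF 1 to LF 4. HF 1, HF 3 and HF 4 were above every LF library and HF 2 was within the LF range. The fold was 1.152 (0.942 to 1.41), and limma gave it an adjusted p of 0.586. Leaving out the first or the second LF pair gave folds of 1.14 and 1.16. Ptgis shares 156 exonic bases with 1110018N20Rik on the other strand, which averaged 10.1 normalised counts.

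Tbxas1 (ENSMUSG00000029925, chromosome 6 from 38875404 to 39084585) had 239, 196, 149 and 121 normalised counts in HF 1 to HF 4, against 245, 252, 218 and 188 in LF 1 to LF 4. HF 3 and HF 4 lay below every LF library, and HF 1 and HF 2 within the LF range. The means were 176 ± 52.1 in HF and 226 ± 29.4 in LF (SD, n = 4 each), and the fold was 0.760 (0.550 to 1.05), with a limma adjusted p of 0.520. Leaving out the first LF pair gave a fold of 0.842, and leaving out the second gave 0.685 (0.470 to 0.999, limma adjusted p = 0.135). Markers of monocytes and macrophages, cells that express Tbxas1, also had lower means in HF. The higher HF mean was found in 0 of 9 tested genes, against 51.3% of all tested genes, and limma called 0 of them. Markers of smooth muscle, airway and alveolar epithelium leaned the same way, so this was not particular to macrophages. In HF 1 to HF 4 their summed counts were 4204, 7182, 3902 and 6352. In LF 1 to LF 4 they were 7259, 7229.8, 9498 and 7517, with Lyz2 the largest part. Among the HF libraries Tbxas1 was highest in HF 1 and lowest in HF 4, and these sums were highest in HF 2 and lowest in HF 3. Platelet markers summed to 2138 to 6472 in HF and 2161 to 4351 in LF. The part of these cells in the Tbxas1 values was not tested, and fewer such cells and less RNA per cell cannot be told apart in sorted bulk samples.

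The log2 ratio of Ptgis to Tbxas1 counts was 0.89, 0.91, 1.6003 and 1.98 in HF 1 to HF 4, against 0.47, 0.70, 0.73 and 1.08 in LF 1 to LF 4. HF 1 and HF 2 fell within the LF range, and HF 3 and HF 4 above it. The group means were 1.34 ± 0.54 in HF and 0.74 ± 0.25 in LF (SD, n = 4 each). The difference of 0.60 was thus about as large as the SD of the HF libraries, and the groups overlapped.

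Ptges, Ptges2 and Ptges3 carry the name of prostaglandin E synthases, but they are unrelated proteins. Ptges is the inducible microsomal enzyme that acts with Ptgs2, while Ptges3 is best known as p23, a co-chaperone of Hsp90. Ptges2 (ENSMUSG00000026820, chromosome 2 from 32395896 to 32405772) had 390.2, 587, 479 and 469 normalised counts in HF 1 to HF 4, against 306, 374, 302 and 332 in LF 1 to LF 4. It was the 1 gene of the 8 whose groups did not overlap, as in 5.43% of all tested genes. HF lay wholly above LF in 3.47% of tested genes and wholly below in 1.96%. The means were 481 ± 80.7 in HF and 329 ± 33.1 in LF (SD, n = 4 each). The fold was 1.45 (1.16 to 1.82), with an unadjusted limma p of 0.00356 and an adjusted p of 0.209, and by p Ptges2 stood at place 289 of 17067 genes. Without the first LF pair the fold was 1.501 (limma adjusted p = 0.0821). It was 1.41 when the second pair was left out (limma adjusted p = 0.0615).

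The DESeq2 fits placed Ptges2 near the threshold, and edgeR did not. The authors' deposited table gives it a log2 fold change of 0.55 with a standard error of 0.17 and an adjusted p of 0.0490, the 1 gene of the 8 under 0.05 there, where 2.04% of 15276 genes were called, 1.58% higher in HF and 0.458% lower. DESeq2 on the tested genes gave an adjusted p of 0.0547 and edgeR's quasi-likelihood test 0.225. Leaving out single libraries gave log2 fold changes of 0.44 to 0.63 with limma adjusted p values of 0.119 to 0.565. No gene of the GENCODE M21 annotation overlaps Ptges2.

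Ptges (ENSMUSG00000050737, chromosome 2 from 30889471 to 30929863) had 245, 292, 312 and 307 normalised counts in HF 1 to HF 4, against 226, 261, 431 and 509 in LF 1 to LF 4. The HF libraries lay between the LF pairs, except that HF 1 lay below LF 2. LF 3 and LF 4 averaged 1.93 times LF 1 and LF 2. With all 8 libraries the fold was 0.854 (0.598 to 1.22), with a limma adjusted p of 0.722. Without LF 1 and LF 2 it was 0.616 (0.487 to 0.779), and limma called Ptges lower in HF (adjusted p = 0.0272), as it did 0.662% of all genes. Without LF 3 and LF 4 the fold was 1.18 (0.926 to 1.51), with a limma adjusted p of 0.294. The direction of Ptges therefore changed with the LF pair that was left out.

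Ptges3 (ENSMUSG00000071072, chromosome 10 from 128058954 to 128077272) had 2492, 2717, 2561 and 2552 normalised counts in HF 1 to HF 4, against 1868, 1941, 2899.5 and 2966 in LF 1 to LF 4. Again the HF libraries lay between the LF pairs, and LF 3 and LF 4 averaged 1.54 times LF 1 and LF 2. The SD was 3.72% of the mean in HF and 24.6% in LF. Its fold was 1.09 (0.857 to 1.39) with all libraries, with a limma adjusted p of 0.770, and 0.879 (0.764 to 1.01) without LF 1 and LF 2, with a limma adjusted p of 0.435. Without LF 3 and LF 4 the fold was 1.35 (1.18 to 1.56), and limma called Ptges3 higher in HF (adjusted p = 0.0108), as it did 14% of all genes. Endothelial markers divided the LF libraries in the same way, with sums of 120388 and 128062 in LF 1 and LF 2, 172579 and 193686 in LF 3 and LF 4, and 159156 to 181373 in HF. Their part in the values of Ptges and Ptges3 was not tested. The processed pseudogene Ptges3-ps, a copy on chromosome 6, carried 148, 139.5, 122 and 144 normalised counts in HF 1 to HF 4, against 73.2, 93.3, 136 and 149 in LF 1 to LF 4, so reads of Ptges3 may be divided between both loci and its level is uncertain to that extent.

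**Figure D3:**
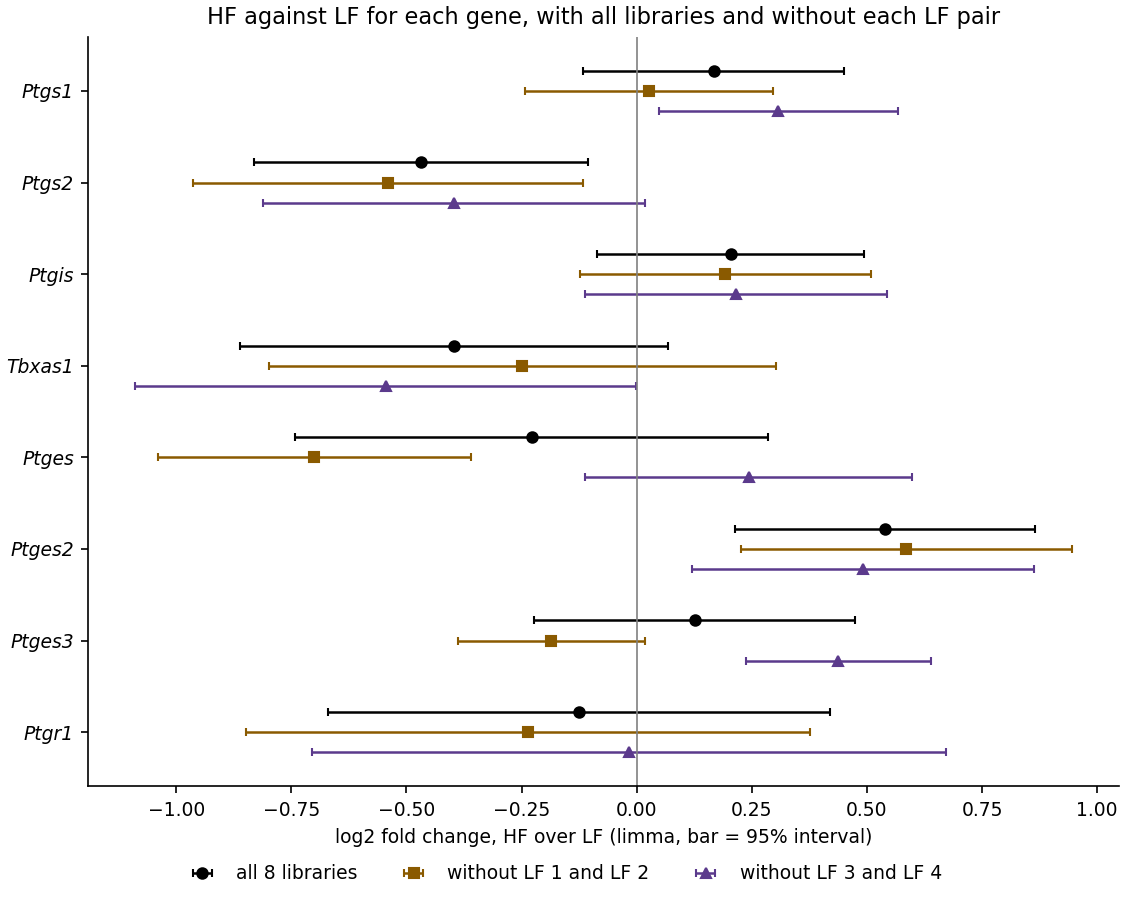
Log2 fold changes, HF over LF, and their 95% intervals (x axis, limma) for each gene (rows), with all 8 libraries and without each LF pair. Ptges2 and Ptgs2 keep their sides of 0 in all 3 fits, which leaving out LF libraries could not change. Ptges (-0.70 against 0.24) and Ptges3 (-0.19 against 0.44) lie on opposite sides of 0 when the first or the second LF pair is left out.

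Ratios that involve Ptges showed the LF pairs too. The log2 ratio of Ptges2 to Ptges counts was 0.67, 1.002, 0.62 and 0.61 in HF 1 to HF 4, against 0.44, 0.52, -0.51 and -0.61 in LF 1 to LF 4. Every HF library lay above every LF library, by a small step from LF 1 and LF 2 and a large one from LF 3 and LF 4. For this ratio too, no share over other pairs of genes was computed. The log2 ratio of Ptges to Ptgis counts was -0.85, -0.33, -0.54 and -0.63 in HF 1 to HF 4, against -0.59, -0.64, 0.25 and 0.36 in LF 1 to LF 4. Here the HF libraries overlapped LF 1 and LF 2 and lay below LF 3 and LF 4.

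Ptgr1, a reductase that inactivates prostaglandins and leukotriene B4, had the fewest reads of the 8 genes, 33 to 70 per library. Ptgr1 (ENSMUSG00000028378, chromosome 4 from 58965439 to 58987119) had 62.0, 39.1, 51.5 and 52.0 normalised counts in HF 1 to HF 4, against 40.3, 64.7, 58.2 and 61.1 in LF 1 to LF 4. The groups overlapped throughout. The fold was 0.917 (0.628 to 1.34), with a limma adjusted p of 0.852. It was 0.849 when the first LF pair was left out and 0.989 when the second was.

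Levels of different genes were compared per kilobase of merged exon in the GENCODE M21 annotation. Ptges3 was at 1164 ± 43.3 normalised counts per kilobase in HF and 1091 ± 268 in LF, and Ptgs1 at 598 ± 75.1 in HF and 533 ± 66.7 in LF (SD, n = 4 each). Ptges3 exceeded Ptgs1 in 8 of 8 libraries, and Ptgs1 exceeded Ptgs2 in 8 of 8, by 2.59 to 6.12 times. Ptgs2, at 136 ± 32.9 in HF and 185 ± 18.4 in LF, and Ptgis, at 169.6 ± 18.2 in HF and 147 ± 12.3 in LF, could not be ordered, since Ptgs2 was the higher in 4 of 8 libraries. Ptgis exceeded Ptges in 8 of 8 libraries. Ptges, at 73.5 ± 7.79 in HF and 90.7 ± 34.4 in LF, and Ptges2, at 95.1 ± 15.96 in HF and 65.0 ± 6.54 in LF, also changed places, with Ptges higher in 2 of 8. Both exceeded Ptgr1 and Tbxas1 in every library, at 22.3 ± 4.08 and 19.3 ± 5.73 per kilobase in HF and 24.4 ± 4.73 and 24.8 ± 3.23 in LF. The place of Tbxas1 depended on the length used, and which of its exons carried the reads was not examined. Its merged exons span 9094 bases but its principal transcript 1990, and per kilobase of principal transcript it averaged 100.9 over the 8 libraries, above Ptges in 4 of 8 and below Ptgs2 in 8 of 8.

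**Figure D4:**
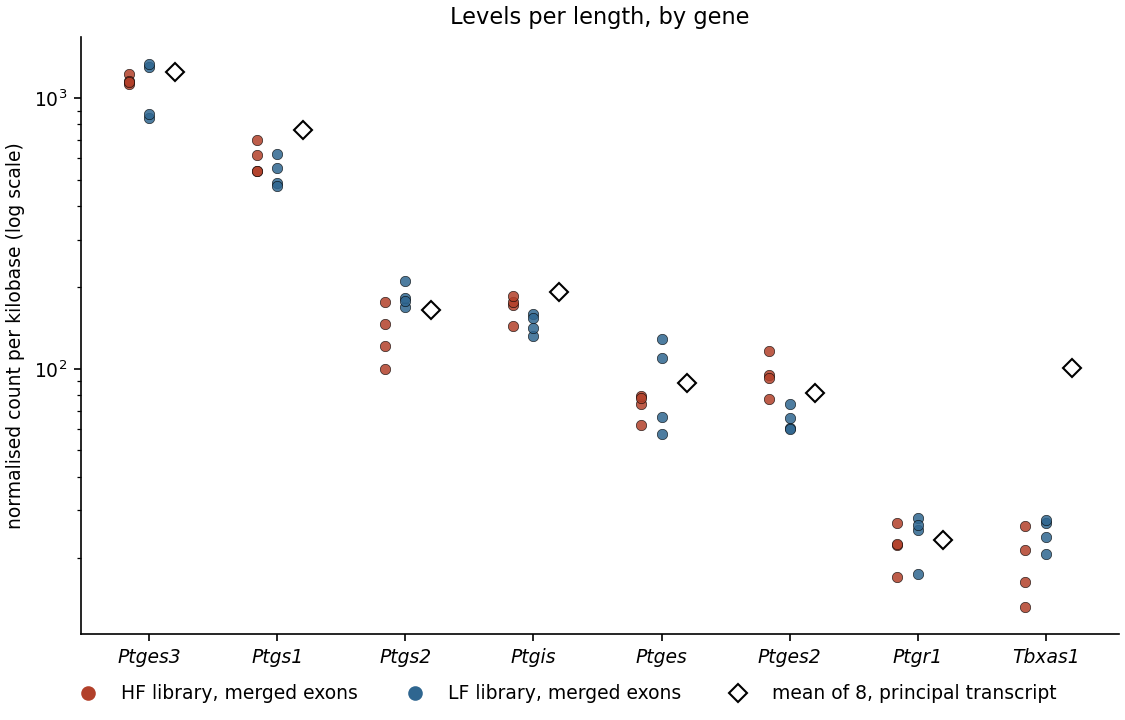
Normalised counts per kilobase (y axis, log scale) of the 8 genes in each HF and LF library over merged exons, with the mean of the 8 libraries over the principal transcript as open diamonds. Ptges3 and Ptgs1 are highest by both lengths, and the mean of Tbxas1 is 22.1 per kilobase over merged exons but 100.9 over the principal transcript.

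The genes around these enzymes were taken from 6 lists of arachidonate and prostanoid handling, with 47 genes listed, 46 of them in the table and 35 tested. By limma, 0 of the 35 passed at an adjusted p under 0.05, as did 0% of all tested genes. edgeR also called 0, and so did DESeq2, which called 1.57% of its genes higher in HF and 0.596% lower. At an unadjusted limma p under 0.05 there were 2 of the 35, where 11% of all tested genes fell, 1 higher (Pla2g12a) and 1 lower (Mgst2). Without LF 1 and LF 2 limma called 1 of the 35, Pla2g12a, higher in HF, where 3.09% of all genes were called higher. Without LF 3 and LF 4 it called 7, 6 higher and 1 lower, where 14% of all genes were called higher and 6.02% lower. The highest levels lay in clearance rather than synthesis. Hpgd, which oxidises prostaglandins in the first step of breakdown, was at 29946 ± 2698 normalised counts in HF and 28049 ± 4282 in LF (SD, n = 4 each), with a fold of 1.07 (0.838 to 1.38). Without the first LF pair Hpgd had a log2 fold change of -0.09 and without the second 0.29, neither called by limma (adjusted p = 0.828 and 0.0749). Its level per kilobase, 17793 in HF and 16666 in LF, was above that of 99.95% of tested genes. Slco2a1, the transporter that takes prostaglandins into cells, was at 24111 ± 2827 in HF and 20365 ± 3541 in LF, with a fold of 1.19 (0.927 to 1.53). Limma called Slco2a1 higher in HF without the second LF pair (log2 fold change 0.43, adjusted p = 0.0268) but not without the first (0.07, adjusted p = 0.883). Of the 5 genes of breakdown and transport, 4 were higher in mean in HF, and the median of their log2 fold changes was 0.13. The reductase Ptgr2 was the 1 gene of the 35 whose groups did not overlap, against 5.43% of all tested genes. Ptgr2 was at 455 ± 24.5 in HF and 396 ± 35.0 in LF, with a fold of 1.151 (limma adjusted p = 0.566). The exporter Abcc4 had a fold of 0.883.

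Upstream, the release of arachidonate was represented by 5 tested genes of 12, of which 3 had higher HF means, and their median log2 fold change was 0.10. Pla2g12a, a secreted phospholipase A2, had 337, 507, 582 and 734 normalised counts in HF 1 to HF 4, against 497, 370.4, 226 and 191 in LF 1 to LF 4. HF 3 and HF 4 were above all LF libraries, HF 1 was below LF 1 and LF 2, and the fold was 1.74 (1.11 to 2.72, limma adjusted p = 0.351). It was called higher without the first LF pair (limma adjusted p = 0.0121) but not when the second pair was left out (0.444). Pla2g4a, the cytosolic phospholipase that feeds the cyclooxygenases, was at 169 ± 35.4 in HF and 176 ± 50.8 in LF. Its fold was 0.971 (0.699 to 1.35). The calcium-independent phospholipase Pla2g6 had a fold of 1.14 and Pla2g4f, with 4 to 27 reads per library, a fold of 0.578 (0.234 to 1.43). The log2 fold change of Pla2g4f was 0.07 without the first LF pair and -1.65 without the second (limma adjusted p = 0.982 and 0.0654), and that of Pla2g4a was 0.12 and -0.20. Among the 4 genes that activate arachidonate or return it to phospholipids, 3 had the higher mean in HF (median 0.07). Lpcat3, which puts arachidonate back into phospholipids, had a fold of 1.29 with all libraries, while Acsl4 and Lpcat2 had folds of 0.952 and 1.07. Lpcat3 was called higher without LF 3 and LF 4 (limma adjusted p = 0.00867), as were 14% of all tested genes. Without the first LF pair the log2 fold changes were -0.05 for Lpcat3, -0.40 for Acsl4 and 0.43 for Lpcat2. Without the second they were 0.25 for Acsl4 and -0.23 for Lpcat2, so both changed direction with the pair left out, and neither was called.

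Of the other prostanoid synthases, 4 of 6 were tested. The HF mean was the higher in 1, and the median log2 fold change was -0.04. Cbr1, a carbonyl reductase, had a fold of 1.16 (0.959 to 1.41). It was called higher without LF 3 and LF 4 (limma adjusted p = 0.0278), as were 14% of all tested genes. Akr1b3, an aldose reductase that makes prostaglandin F, had a fold of 0.967, with log2 fold changes of -0.29 without the first LF pair and 0.19 without the second. Hpgds, a prostaglandin D synthase of blood cells, was at 39.8 ± 7.11 in HF and 51.8 ± 16.03 in LF. Ptgds, the lipocalin-type prostaglandin D synthase, had at most 3 reads in any library and was not tested.

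Among 7 tested receptors of 9, the HF mean was the higher in 3, with -0.06 as the median log2 fold change. The thromboxane receptor Tbxa2r was the most abundant per kilobase of the receptors named here, at 510.4 ± 39.5 normalised counts in HF and 453 ± 122 in LF. Its fold was 1.16 (0.880 to 1.52). Limma called it higher without the second LF pair (adjusted p = 0.0164), as it did 14% of all tested genes. Without the first pair the log2 fold change of Tbxa2r was -0.13 (limma adjusted p = 0.757). The prostacyclin receptor Ptgir was at 35.4 ± 17.4 in HF and 35.4 ± 16.7 in LF, with log2 fold changes of 0.24 without the first LF pair and -0.36 without the second. Receptors of prostaglandin E were low. Ptger4 was at 24.8 ± 6.57 in HF and 26.9 ± 5.13 in LF, Ptger2 at 11.9 ± 2.85 in HF and 23.3 ± 9.20 in LF, and Ptger3 at 13.9 ± 8.07 in HF and 6.50 ± 5.63 in LF. None of these receptors passed limma's test, with adjusted p values of 0.459 for Ptger2 and 0.550 for Ptger3.

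The lipoxygenase and leukotriene genes, which draw on the same arachidonate, had the lowest median of the 6 lists, a log2 fold change of -0.48 against 0.023 for all tested genes. Of 10 tested genes 3 had the higher mean in HF. Mgst2, a microsomal transferase that can make leukotriene C, was at 106 ± 23.3 in HF and 145 ± 16.1 in LF. Its fold was 0.719 (0.530 to 0.975, limma adjusted p = 0.413). Alox5, which starts leukotriene synthesis, was at 32.6 ± 15.3 in HF and 52.8 ± 14.5 in LF, its helper Alox5ap at 82.3 ± 27.0 in HF and 77.8 ± 22.3 in LF, and the receptor Cysltr1 at 80.2 ± 20.3 in HF and 114 ± 35.6 in LF. Alox5 and its partners are genes of leukocytes. Markers of monocytes and macrophages had lower means in HF, with none called by limma, as given for Tbxas1. Summed neutrophil markers (71.9 to 209 in HF, 122 to 543 in LF) and Ptprc overlapped between the groups. The part of leukocytes in these values was not tested.

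**Figure D5:**
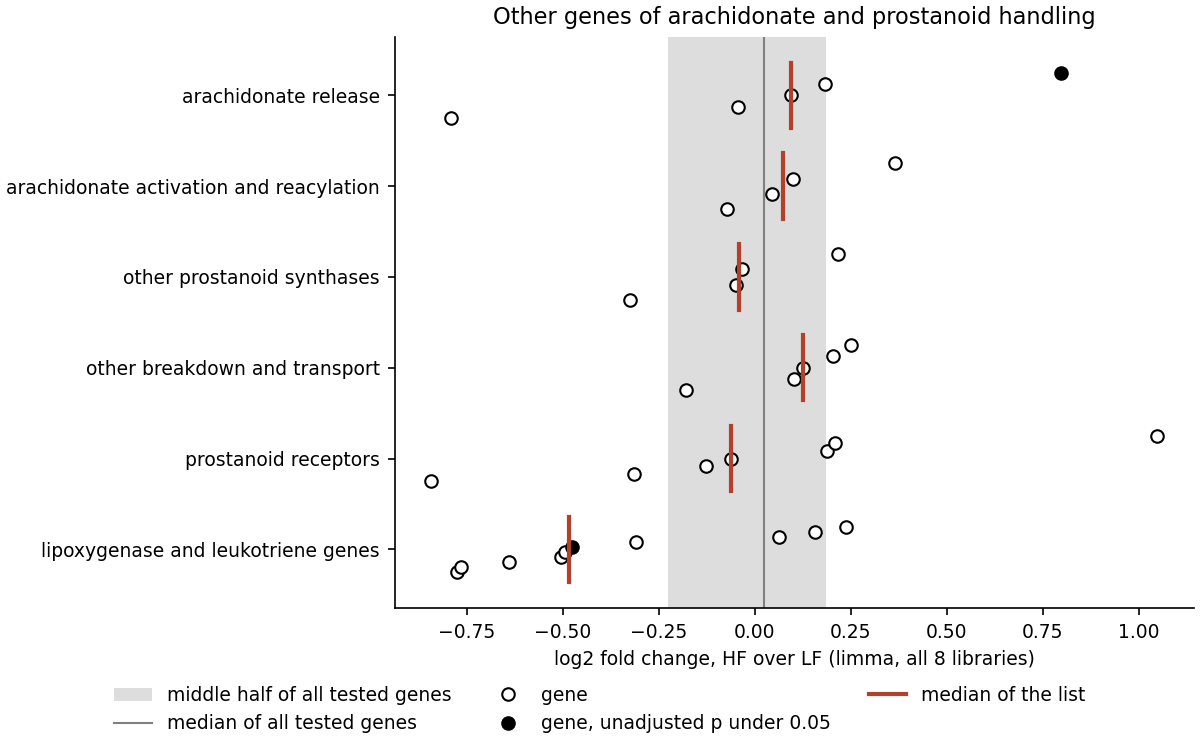
Log2 fold change of HF over LF (x axis, limma with all 8 libraries) for the 35 tested genes of 6 lists (rows), with list medians as red bars and the middle range of all 17067 tested genes in grey (-0.23 to 0.19). The median of the lipoxygenase and leukotriene genes (-0.48) is the one outside the grey range, and the 2 filled points are Pla2g12a (0.80) and Mgst2 (-0.48).

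The genes most like each of the 8 across the libraries were sought among 10906 tested genes with a mean of at least 50 normalised counts. Likeness was the root-mean-square difference of the log2 values over the 8 libraries, each gene centred on its own mean, so a small value means that a gene moved in parallel. Nearest to Ptgs2 were Grb14, an adaptor of the insulin receptor, at 0.10, then Zfp697 and Cd82 at 0.16 each, where the median gene was at 0.42. Nearest to Ptges2 were Map4k3, a kinase of nutrient signalling, Rab2a, a small GTPase of vesicle traffic, and the imprinted gene Mest, at 0.11, 0.12 and 0.12. For Ptges the nearest were Dpysl5 at 0.11, the immunoproteasome subunit Psmb9 at 0.11 and the ubiquitin-conjugating enzyme Ube2l6 at 0.13. Ptges3 was matched by Vdac2, a channel of the outer mitochondrial membrane, and by Selenok and Bcap31 of the endoplasmic reticulum, at 0.040 to 0.042. Nearest to Ptgis were Kctd12b, Tmcc3 and Lurap1l, at 0.064 to 0.070. For Tbxas1 they were Dancr, Arhgap32 and Tnfaip8l1, at 0.12 to 0.13, and for Ptgr1 they were Fap, Zfp46 and Prag1, at 0.10 to 0.11. With 8 libraries and this many genes, close matches are found for any profile, and the values describe these libraries only.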

How the data were processed

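Per the labels' protocols, RNA of sorted lung endothelial cells was isolated with TRIzol LS and turned into libraries by a SMART-Seq kit. The submitters' processing notes list DESeq2 1.24.0, featureCounts 2.0.0 and STAR 2.6.1b. The sources used here name no genome build, annotation or strand setting. The authors deposited normalised counts, a signal of reads divided by a size factor per library (0.820 to 1.27) and not scaled for length. Per the file headers the table also has the authors' mean signal, their HF over LF log2 fold change, its standard error, the Wald score and p-values with and without adjustment. Whole reads were recovered for 100% of values within 0.01 reads. The labels describe no molecular identifiers, so reads are not counts of molecules, and low counts limit the precision.

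Tested were the 17067 genes that reached 10 normalised counts in 4 or more libraries, with limma 3.58.1 (trended variance, two-sided, log2(normalised count + 1), 12.3 degrees of freedom, Benjamini-Hochberg over all genes, adjusted p under 0.05). Folds are HF over LF on that scale and understate changes of low genes. edgeR 4.0.16 (quasi-likelihood, TMM) and DESeq2 1.42.0 were run on the recovered reads. The limma and edgeR steps were checked on simulated data, and no value of that check is used. All 34899 gene IDs matched GENCODE M21 (GRCm38), and 0 columns matched no sample. Pathway lists numbered 6 and marker lists 10. Named were the 8 genes, a fixed set of pathway and sort genes, the 3 with the smallest p per list and the 3 nearest patterns per gene. The patterns nearest to Ptgs1 are not reported here. The members and lists were chosen with earlier results of these data known, and the lists were given by counts and medians with no test. The 12 pairs of libraries within a group differed by more than counting error (chi-square per degree of freedom 9.06 to 45.2), a check for libraries deposited in duplicate that does not show separate animals. That each library came from its own mouse rests on the number of mice in the series' design text. Alternatives were edgeR and DESeq2, a pseudocount of 0.5 or 5, a mean filter of 50 or none, TMM and quantile rescaling, array weights, a block for the replicate number, omission of each library or LF pair, and a threshold of 0.10. The length of the principal transcript was added after seeing the data.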

Additional observations from a re-analysis of the deposited data

Results flagged for a closer look

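Of 78 groups of 4 libraries examined, for the 8 genes, their 4 ratios and the other named genes, 2 held a library far from the other 3, and chance alone would mark about 1 group in 20. The log2 ratio of Ptges2 to Ptges was 1.002 in HF 2, against 0.61 to 0.67 in the other HF libraries, a gap of 0.842 of the range of the group. Ptger4, a prostaglandin E receptor, had 34.5 normalised counts in HF 1, against 20.4 to 22.8 in the other HF libraries, a gap of 0.830 of the range.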

How the results depend on the processing

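Ptgs1, Ptgs2, Ptgis, Tbxas1 and Ptges2 kept their direction and stayed above the threshold in all 20 alternatives, with log2 fold changes of -0.60 to -0.33 for Ptgs2 and 0.44 to 0.63 for Ptges2. Omissions could not have reversed Ptges2, whose HF values all lay above its LF values. They could not have reversed Ptgs2 either, where only HF 4 lay above the lowest LF value. Their kept direction in those fits was therefore fixed in advance. Ptges reversed to 0.24 with LF 3 and LF 4 left out, Ptges3 to -0.19 with LF 1 and LF 2 left out, and Ptgr1 to 0.084 with quantile normalisation; why was not tested. The count of genes called, 0 with limma, was 313 with DESeq2, 1 without a filter, 641 when LF 1 and LF 2 were left out, 3421 when LF 3 and LF 4 were, and 0 to 1 when single libraries were left out. Those LF pairs gave 1 and 1 of the 8 genes and 1 and 7 of the 35 pathway genes. Over all tested genes, 3.09% were called higher and 0.662% lower in HF without LF 1 and LF 2. Without LF 3 and LF 4 these shares were 14% and 6.02%. With the replicate number as a block limma called 0 genes, 0 of the 8 and 0 of the pathway genes. Same-numbered HF and LF libraries had correlations of deviations over genes of 0.115, -0.222, -0.143 and 0.184, of both signs, as had libraries with different numbers. The LF deviations include the split between the LF pairs, so a smaller effect shared by same-numbered libraries could be missed. Whether the numbers pair the libraries is therefore not decided by these correlations. Single libraries left out kept the ratios within 1 SD. Per kilobase of principal transcript Ptgs1 averaged 766, Ptgis 193 and Tbxas1 100.9. Counts are low for Ptgr1 (33 to 70 reads per library), Pla2g4f (4 to 27), Ptgir (14 to 63), Ptger3 (2 to 24) and Ptgds (0 to 3), which limits the precision of their values.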

Other observations

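Some values outside the planned comparisons are given here, for genes chosen after their values were seen. Alox12, the lipoxygenase known from platelets, had 256, 841, 258 and 518 normalised counts in HF 1 to HF 4, against 469, 266, 257 and 581 in LF 1 to LF 4. Summed platelet markers were 2564, 6472, 2138 and 3603 in the same HF libraries, against 4351, 3311, 2161 and 3903 in the LF libraries. HF 2 was highest in both, and HF 3 was at or near the bottom of both. In the LF group, LF 1 had the highest platelet sum but LF 4 the highest Alox12. HF 2 also had the lowest Ptgs2 and Ptgis counts of the HF group, at 459 and 369, and the highest Ptges2, at 587. Its Ptgs1 and Tbxas1 counts, at 2384 and 196, were neither the highest nor the lowest of the HF group. The part of platelet RNA in these values was not tested.

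Pla2g2d, a secreted phospholipase A2 of the same list, fell below the filter and was not tested. It had 5.08, 5.33, 4.86 and 5.51 normalised counts in HF 1 to HF 4, against 1.22, 0, 0 and 1.13 in LF 1 to LF 4. All HF values lay above all LF values, but at a handful of reads per library.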
